A study of Mus musculus with 30 samples.

Results

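The midbrain floor plate transcription factors followed here are Lmx1a, Lmx1b, Foxa1, Foxa2, Msx1, Otx2, En1, En2 and Ferd3l, taken by gene symbol from the table of captured cells and from the count table of cultured spheres. They are 9 of the 14997 genes used from the captured table, and all 9 are in it. Of these, 8 had values at all 4 ages and Lmx1b had values at E11 and P70. Of the 26005 genes with sphere counts, 8 are members, and none carries the symbol Ferd3l. Every gene listed there has at least 1 count. Members were matched by symbol only, so whether Ferd3l had no count in spheres or is listed under another name was not checked.

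The captured libraries are polyadenylated RNA of midbrain floor plate cells taken by laser capture microdissection at embryonic day 11 (E11, 4 libraries), E13 (5 libraries), E18 (5 libraries) and postnatal day 70 (P70, 6 libraries). All 20 carry the genotype Lmx1aCreERT2; R26TRAPC, so cells were labelled through a tamoxifen-inducible recombinase under the control of Lmx1a, 1 of the members, and the labels do not spell out the R26 allele or give the time of induction. The spheres were grown in vitro from adult tissue, with 5 libraries named MB and 5 named FB, and no genotype is given for them. The series describes ependymal spheres made from the adult midbrain aqueduct and neurospheres made from the lateral ventricle, without tying them to the names MB and FB. The labels do not state whether the libraries within a group are separate animals or cultures, so p-values measure only the spread between these libraries, which may be technical, and would be too small if several captures came from 1 animal.

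The floor plate forms along the ventral midline of the neural tube, and in the midbrain it gives rise to dopamine neurons and later lines the aqueduct with ependymal cells. Lmx1a and Lmx1b encode LIM homeodomain factors that specify dopamine progenitors. Foxa1 and Foxa2 encode forkhead factors, of which Foxa2 is a classical target of sonic hedgehog in the floor plate. Msx1 encodes a homeodomain factor that acts downstream of Lmx1a in the embryonic midbrain, and Ferd3l (also called Nato3) encodes a basic helix-loop-helix factor of the floor plate. Otx2 encodes a homeodomain factor that defines forebrain and midbrain, and En1 and En2 encode the engrailed homeodomain factors of midbrain and anterior hindbrain, which dopamine neurons also use.

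On mouse build GRCm38, in the GENCODE M21 annotation, Lmx1a (ENSMUSG00000026686.14) lies at chr1:167689237-167848741 on the plus strand and Lmx1b (ENSMUSG00000038765.13) at chr2:33560965-33640511 on the minus strand. Foxa1 (ENSMUSG00000035451.7) lies at chr12:57540628-57546916 and Foxa2 (ENSMUSG00000037025.11) at chr2:148042877-148046969, both on the minus strand. Msx1 (ENSMUSG00000048450.10) lies at chr5:37820485-37824583 and Otx2 (ENSMUSG00000021848.16) at chr14:48657677-48673819, again on the minus strand. En1 (ENSMUSG00000058665.8) lies at chr1:120602418-120607992, En2 (ENSMUSG00000039095.8) at chr5:28165694-28172166 and Ferd3l (ENSMUSG00000046518.3) at chr12:33928425-33929310, all on the plus strand. Otx2 shares 5112 bases with Otx2os1, a long noncoding RNA gene on the opposite strand. The libraries do not mark strand, so reads of Otx2 and Otx2os1 cannot be told apart where they overlap.

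RefSeq promoter sequences on GRCm38.p6 matched 8 of the 9 members with 13 start sites, none of them for En2. Both strands of the 250 bases before each start were searched for the forkhead core TGTTTAC, the Otx core TAATCC and the homeodomain core TAATTA. Of all 32851 promoters of that length, 3.17% held the forkhead core, 6.25% the Otx core and 4.84% the homeodomain core. Windows of 3 members with different courses over age are shown, all on the minus strand and read 5′ to 3′. The Foxa1 stretch shown is chr12:57546162-57546361, 200 bases of its searched window without the 50 next to the start, the Otx2 window, upstream of the start numbered 4, is chr14:48667645-48667894 and the Msx1 window is chr5:37824586-37824835. In the GENCODE annotation the Foxa1 and Otx2 windows lie in introns of longer transcripts of their own genes, and the Msx1 window lies upstream of its gene. Capitals mark a match to a core on either strand.
Foxa1: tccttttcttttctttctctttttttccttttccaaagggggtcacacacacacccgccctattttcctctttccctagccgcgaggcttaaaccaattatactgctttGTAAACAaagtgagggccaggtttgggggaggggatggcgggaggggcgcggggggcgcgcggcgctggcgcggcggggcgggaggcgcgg
Otx2: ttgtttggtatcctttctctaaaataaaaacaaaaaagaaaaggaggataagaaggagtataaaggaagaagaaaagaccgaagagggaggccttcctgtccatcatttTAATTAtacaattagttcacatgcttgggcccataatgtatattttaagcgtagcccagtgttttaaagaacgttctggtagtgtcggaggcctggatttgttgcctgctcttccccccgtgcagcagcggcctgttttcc
Msx1: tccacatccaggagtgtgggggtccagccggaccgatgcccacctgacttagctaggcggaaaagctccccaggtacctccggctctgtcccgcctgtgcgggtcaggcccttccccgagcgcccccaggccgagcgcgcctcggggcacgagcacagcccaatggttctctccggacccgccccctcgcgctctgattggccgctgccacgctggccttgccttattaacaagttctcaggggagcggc
Foxa1 held 1 forkhead core in its reverse form, the 1 match of that core among the 13 windows of members. The Otx2 window shown held 1 homeodomain core, and another Otx2 window, not shown, held 3 homeodomain cores and 1 Otx core. The Msx1 window held none of the 3 letter strings, and neither did the windows of Lmx1a, Lmx1b, Foxa2, En1 and Ferd3l.

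Levels in captured cells are the deposited values, which behave as RPKM, reads scaled to gene length and library size, and are called units here. Levels of different genes are comparable only as far as the authors' gene lengths (not given in the sources used here) hold. The table leaves out a gene at any age whose libraries average under 1 unit. The reads recovered behind these values numbered 3506807 to 4110990 in each E11 library, 3005873 to 4463256 in each E13 library, 2873743 to 3740391 in each E18 library and 1632537 to 3636704 in each P70 library. Sphere libraries held 6327198 to 8422358 counts in MB and 6676389 to 9291311 in FB. The floor plate genes Shh and Corin bear on the labelled tissue. Shh, the hedgehog ligand, measured 78.5 ± 18.6 units at E11, 36.5 ± 12.1 at E13 and 14.5 ± 5.54 at E18 (SD) and was not listed at P70. Corin, a floor plate surface protease, was likewise not listed at P70. The ependymal regulator Foxj1 measured 3.19 ± 1.80 units at E11, 69.9 ± 65.2 at E18 and 239 ± 130.4 at P70 (SD). In bulk captures, fewer cells of a type and less RNA per cell cannot be told apart, here and for every member below.

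All 9 factors were listed in adult captured cells, and the order of their levels differed from that at E11. At E11 the order by mean was Otx2, Foxa2, Lmx1a, Foxa1, En1, Ferd3l, En2, Msx1 and Lmx1b. All 4 libraries kept the order of neighbours in it except between Lmx1a and Foxa1, where 3 did, and between En2 and Msx1, where 2 did. At P70 the order was Msx1 (44.0 units), Otx2 (38.6), Foxa1 (28.0), En1 (21.2), Foxa2 (14.9), Ferd3l (6.43), Lmx1a (4.89), Lmx1b (4.36) and En2 (3.11). Only Otx2 over Foxa1 held in all 6 P70 libraries; Foxa2 over Ferd3l held in 5, and every other pair of neighbours in 2 to 4, so most neighbours in the adult order do not differ beyond their spread. As a share of the E11 mean, the P70 mean was 6.94% for Lmx1a, 15.4% for Foxa2, 17.8% for Otx2 and 50.8% for Foxa1. It was 89.2% for En2, 97.6% for Ferd3l, 132% for En1, 266% for Lmx1b and 1340% for Msx1.

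**Figure D1:**
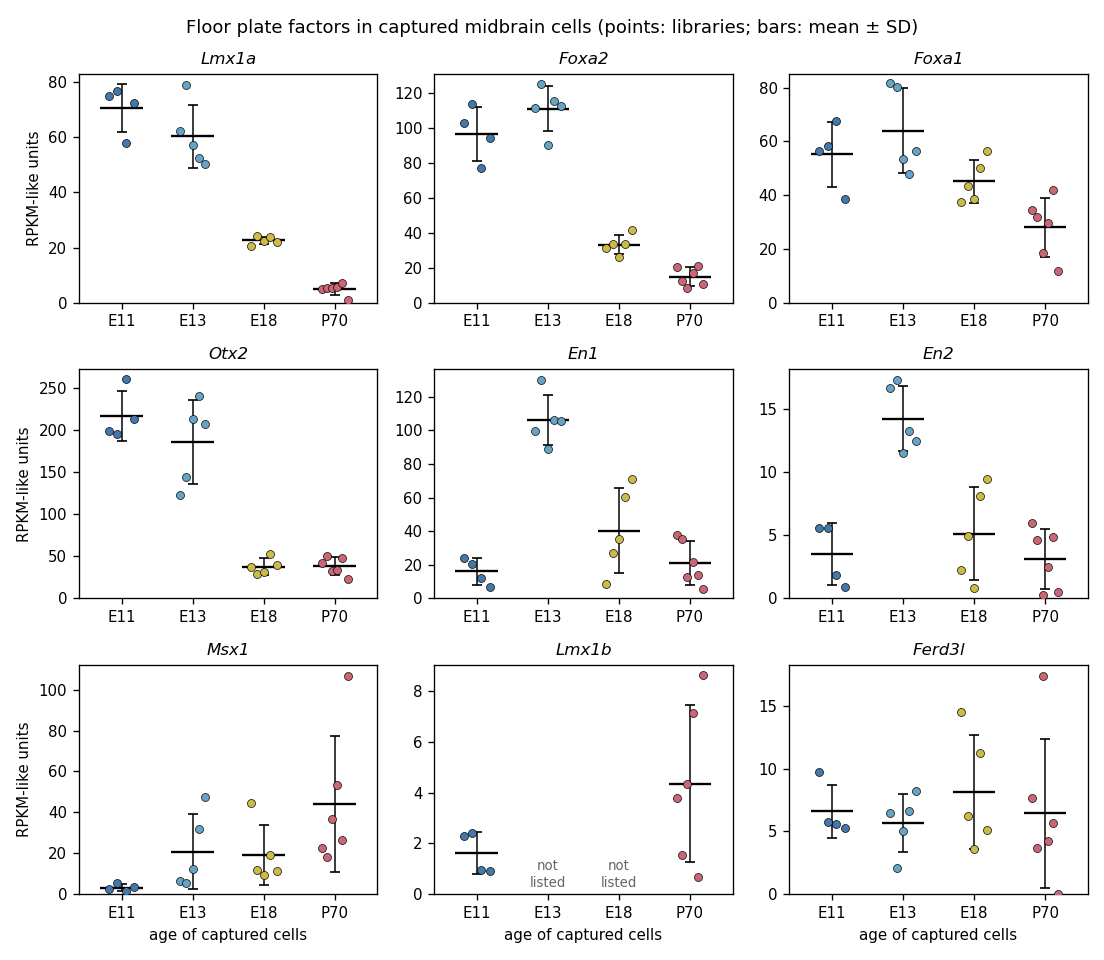
Level of each factor (vertical axis, RPKM-like units, from 0 on a scale of its own) in captured cells at E11, E13, E18 and P70 (horizontal axis); points are libraries and bars the mean ± SD, with 4, 5, 5 and 6 libraries. Lmx1a, Foxa2 and Otx2 are low in every P70 library compared with E11, Msx1 is above all E11 libraries, and En1 and En2 stand highest at E13.

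Lmx1a was the member with the lowest adult share. It measured 74.9, 76.9, 58.0 and 72.5 units in the E11 libraries, 62.3, 79.0, 57.2, 52.5 and 50.5 at E13 and 20.7, 24.2, 22.4, 23.7 and 22.0 at E18. At P70 the lowest library had 0.901, the median was 5.32 and the highest library had 7.12 units. Every E18 library lay below every E13 library, and every P70 library below every E18 library, while E13 and E11 overlapped. The log2 change, on log2(value + 1) as throughout for captured cells, was -1.36 for E18 against E13 (SE 0.27, limma adjusted p = 0.000259) and -2.12 for P70 against E18 (SE 0.26, limma adjusted p = 1.45e-06). For P70 against E11 it was -3.72 (SE 0.27, limma adjusted p = 1.14e-10). Adult Lmx1a rested on 10 to 93 recovered reads per library, 309 in all, compared with 1016 to 1314 per library at E11. The library with 0.901 units was P70 replicate 6; without it the log2 change for P70 against E18 was -1.82 (limma adjusted p = 8.47e-09, range over all alternatives 8.47e-09 to 0.00018).

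Lmx1b, the paralog of Lmx1a, was low at both ages at which it was listed. It measured 2.29, 2.40, 0.936 and 0.919 units at E11 and was not listed at E13 and E18. At P70 it measured 3.81, 1.56, 4.33, 7.15, 0.683 and 8.62 units. The P70 and E11 libraries overlapped, and the log2 change of 0.84 did not pass (SE 0.46, limma adjusted p = 0.124). These values rest on 110 recovered reads over the 6 P70 libraries and 39 over the 4 E11 libraries. Without P70 replicate 5, the lowest library, the log2 change was 1.12 and passed (limma adjusted p = 0.0229, range over all alternatives 0.0229 to 0.464).

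Among the forkhead factors, Foxa2 fell more than Foxa1. Foxa2 measured 103, 113, 76.8 and 94.1 units at E11, 112, 125, 90.5, 116 and 112 at E13 and 31.2, 33.4, 26.4, 33.6 and 41.5 at E18. Its P70 libraries had a lowest value of 8.31, a median of 14.6 and a highest value of 21.1 units. Foxa2 was below all earlier libraries at E18 and again at P70, without overlap at either step. Its log2 change was -1.72 for E18 against E13 (SE 0.21, limma adjusted p = 6.57e-07), -1.16 for P70 against E18 (SE 0.20, limma adjusted p = 8.78e-05) and -2.67 for P70 against E11 (SE 0.21, limma adjusted p = 3.47e-10).

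Foxa1 kept the larger share of its embryonic level. It measured 56.3, 58.4, 67.6 and 38.6 units at E11, 81.7, 80.2, 53.6, 47.7 and 56.5 at E13 and 37.4, 43.4, 38.4, 50.0 and 56.3 at E18. The P70 libraries had a lowest value of 11.9, a median of 30.7 and a highest value of 41.8 units, and neighbouring ages overlapped at each step. The log2 change of -0.48 for E18 against E13 did not pass (SE 0.26, limma adjusted p = 0.143). Foxa1 fell by 0.76 on the log2 scale for P70 against E18 (SE 0.25, limma adjusted p = 0.0197) and by 1.03 for P70 against E11 (SE 0.27, limma adjusted p = 0.00191). The call for P70 against E18 was lost without E18 replicate 5 (log2 change -0.68, limma adjusted p = 0.0571) and with edgeR on recovered reads (-0.61, adjusted p = 0.0901), and over all alternatives the adjusted p spanned 0.00727 to 0.0901.

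The ratio of Foxa1 to Foxa2 within each library puts this difference on a scale of its own. Foxa1 over Foxa2 averaged 0.588 ± 0.203 in the 4 libraries of E11 (SD), 0.576 ± 0.123 in the 5 of E13, 1.36 ± 0.118 in the 5 of E18 and 1.89 ± 0.50 in the 6 of P70. No library at E11 or E13 reached 1, and every library at E18 and P70 exceeded it. The log2 ratio differed by 1.26 for E18 against E13 (two-sided exact permutation test p = 0.00794, adjusted p = 0.0381 over 8 ratio comparisons) and by 1.70 for P70 against E11 (exact permutation p = 0.00952, adjusted p = 0.0381). For P70 against E18 the difference of 0.43 did not pass (exact permutation p = 0.0563, adjusted p = 0.15). En1 over En2, the other ratio of paralogs, had medians of 5.44, 7.73, 7.41 and 8.20 at the 4 ages, and none of its 4 comparisons passed (exact permutation p = 0.143 to 0.952). The ratios were chosen after the values had been seen.

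**Figure D2:**
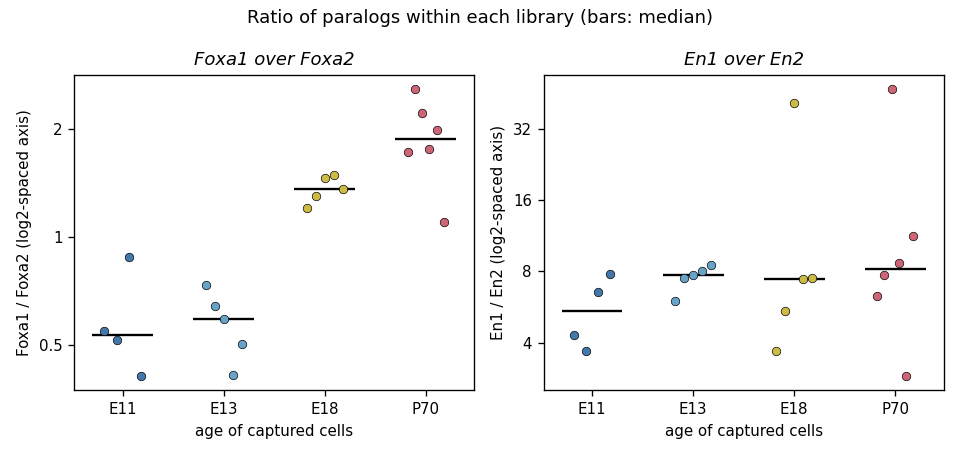
Ratio of Foxa1 to Foxa2 (left) and of En1 to En2 (right) in each captured library by age, on a vertical axis spaced by log2; points are libraries and bars the median. Foxa1 over Foxa2 lies below 1 in all E11 and E13 libraries and above 1 in all E18 and P70 libraries, while En1 over En2 overlaps between ages.

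Otx2 was the most abundant member at E11 and E13 and had a P70 mean that was 101% of its E18 mean. It measured 199.9, 195, 261 and 214 units at E11, 123, 145, 214, 241 and 208 at E13 and 37.3, 28.6, 31.1, 53.0 and 40.4 at E18. The P70 libraries had a lowest value of 23.6, a median of 38.3 and a highest value of 50.5 units. All E18 libraries lay below all E13 libraries, while P70 and E18 overlapped. The log2 change was -2.25 for E18 against E13 (SE 0.22, limma adjusted p = 2.67e-08) and -2.50 for P70 against E11 (SE 0.22, limma adjusted p = 2.28e-09). For P70 against E18 it was 0.01 with an SE of 0.21 (limma adjusted p = 0.976), and its sign turned in some fits that left out a library.

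En1 and En2 both peaked at E13. En1 measured 24.3, 20.7, 12.4 and 6.93 units at E11, 99.8, 130.0, 89.0, 106 and 105 at E13 and 8.36, 27.0, 35.2, 60.1 and 71.2 at E18. The P70 libraries ranged over 5.76 to 37.8 units with a median of 17.7. En2 was lower, at 5.61, 5.59, 1.89 and 0.889 units at E11, 16.7, 17.3, 11.5, 13.2 and 12.4 at E13 and 2.27, 4.95, 0.854, 8.11 and 9.48 at E18, and it ranged over 0.272 to 5.98 at P70. Every E13 library lay above every E11 library and above every E18 library for both genes, and P70 overlapped with E18 and with E11.

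For E13 against E11, En1 was higher by 2.77 on the log2 scale (SE 0.51, limma adjusted p = 0.000509) and En2 by 1.94 (SE 0.54, limma adjusted p = 0.0123). For E18 against E13 they fell by 1.67 (SE 0.48, limma adjusted p = 0.00656) and by 1.56 (SE 0.50, limma adjusted p = 0.0141) on the log2 scale. The later steps did not pass: for P70 against E18 the log2 changes were -0.83 for En1 (limma adjusted p = 0.158) and -0.59 for En2 (limma adjusted p = 0.353). En1 passed for P70 against E18 without E18 replicate 1, its lowest library of that age (log2 change -1.29, limma adjusted p = 0.0161, range over all alternatives 0.0161 to 0.469). The En2 call for E13 against E11 was lost without E11 replicate 4 (1.59, limma adjusted p = 0.0548), and the one for E18 against E13 without E18 replicate 3 (-1.20, limma adjusted p = 0.0521). Over all alternatives the adjusted p of En2 spanned 0.00119 to 0.0548 and 0.00188 to 0.0521 in these comparisons.

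Msx1 was the only member that passed as higher at P70 than at E11. It measured 2.44, 5.65, 1.68 and 3.38 units at E11, 6.50, 5.56, 12.4, 31.8 and 47.7 at E13 and 44.7, 11.8, 9.35, 19.1 and 11.3 at E18. The P70 libraries measured 22.5, 18.1, 36.9, 53.3, 26.7 and 107 units. Every P70 library lay above every E11 library, and P70, E18 and E13 overlapped with each other. The log2 change was 3.21 for P70 against E11 (SE 0.54, limma adjusted p = 2.44e-05) and 1.98 for E13 against E11 (SE 0.57, limma adjusted p = 0.0152). It was 0.10 for E18 against E13 (limma adjusted p = 0.894) and 1.12 for P70 against E18 (SE 0.51, limma adjusted p = 0.0845).

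Single libraries weigh on Msx1. The call for E13 against E11 was lost without E11 replicate 3 (log2 change 1.79, limma adjusted p = 0.0575), and the change for P70 against E18 passed without E18 replicate 1 (1.48, limma adjusted p = 0.0264). Over all alternatives the adjusted p spanned 0.00307 to 0.0575 and 0.0264 to 0.244 in these comparisons. P70 replicate 6 had the highest value, and without it the log2 change for P70 against E11 was 2.90 (limma adjusted p = 5.73e-05, range over all alternatives 1.45e-05 to 0.000211). Msx1 is also a gene of the dorsal midline, so roof plate and choroid plexus genes were read beside it. Of 13 such genes other than members, 4 could be tested for P70 against E11, with Bmp6 higher (log2 change 1.12, limma adjusted p = 0.000219) and Msx2 lower (-1.96, limma adjusted p = 1.5e-05). For P70 against E18, 5 could be tested, with Folr1 (log2 change 2.32, limma adjusted p = 2.01e-06) and Clic6 (0.88, limma adjusted p = 0.0372) higher and none lower. The summed level of the 7 listed genes spanned 131 to 363 units in E11 libraries, 47.7 to 107 in E18 libraries and 246 to 357 in P70 libraries. Folr1 alone averaged 199 units at E11, 53.6 at E18 and 259 at P70. The sum mostly follows this gene and does not stand for the list as a whole. Clic6, Kcne2 and Cldn2 were listed at P70, at 4.58 ± 1.56, 3.33 ± 0.752 and 4.12 ± 3.43 units (SD, n = 6), and not at E11. Ttr, the transthyretin gene, measured 0 to 68.1 units at P70. The choroid plexus genes Kl, Kcnj13, Aqp1 and Slc4a5 and the roof plate genes Gdf7 and Wnt3a were listed at none of the 4 ages. The part of such cells in the Msx1 result was not tested.

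Ferd3l stayed low at every age, and none of its comparisons passed. It measured 9.72, 5.73, 5.59 and 5.31 units at E11, 6.50, 2.11, 5.03, 6.65 and 8.20 at E13 and 14.5, 6.25, 3.63, 11.2 and 5.09 at E18. At P70 it measured 7.67, 3.68, 17.4, 4.22, 5.65 and 0 units, so the adult libraries hold both the highest and the lowest value of this gene. For P70 against E11 its log2 change was -0.45 (SE 0.54, limma adjusted p = 0.477). The adult values rest on 0 to 32 recovered reads per library.

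Counted over the members, 3 of the 8 listed at both ages rose and none fell for E13 against E11, where 20.9% of the 11567 genes tested were called, 9.44% of them as higher. For E18 against E13, 5 of 8 fell and none rose, where 47.4% of 11797 genes were called, 25.0% as lower. For P70 against E18, 3 of 8 fell and none rose, where 40.8% of 12353 genes were called, 24.0% as lower. For P70 against E11, 4 of 9 fell and 1 rose, where 64.9% of 11117 genes were called, 40.3% as lower and 24.6% as higher. The members' shares of calls at the last 2 of these are near those of all genes. The comparisons share libraries and are not independent of each other. The median log2 change over all genes was -0.14 for P70 against E18 and -0.30 for P70 against E11, so a small fall there has to be read against these shifts; with each library set to a common median, the calls of the members numbered the same.

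Groups did not overlap for En1 and En2 above E11 at E13, where 11.2% of all genes tested stood that way and 17.2% stood wholly below. They did not overlap for Lmx1a, Foxa2, Otx2, En1 and En2 below E13 at E18, with 20.9% of all genes, or for Lmx1a and Foxa2 below E18 at P70, with 11.7%; no member stood wholly above E18 at P70, as 9.28% of all genes did. At P70 Lmx1a, Foxa2 and Otx2 lay wholly below E11, as did 31.1% of all genes, and Msx1 wholly above it, as did 18.8%.

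**Figure D3:**
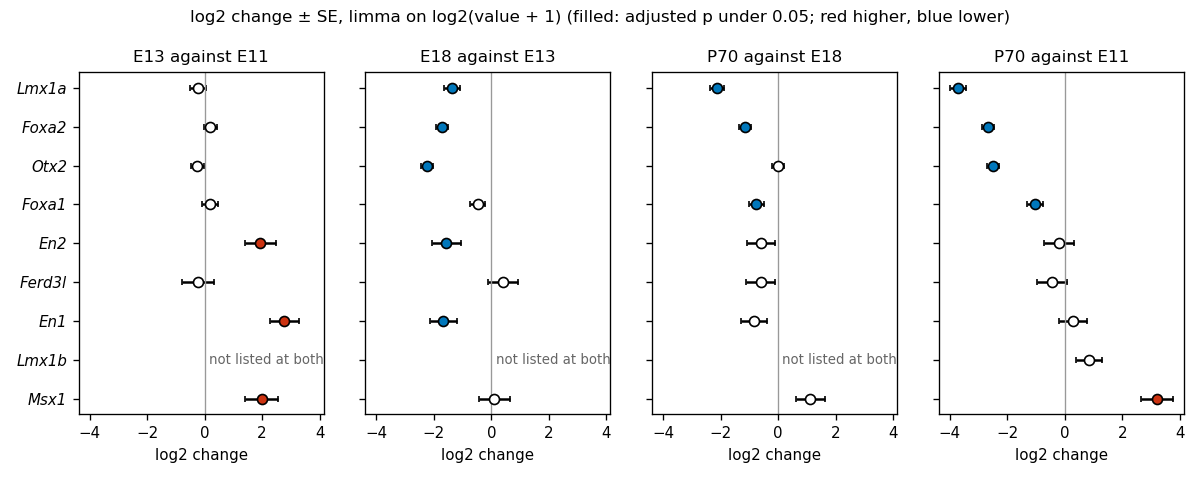
Log2 change (horizontal axis, log2(value + 1) scale) with its SE for each factor in 4 comparisons of captured ages, from limma; filled points have an adjusted p under 0.05, red for higher and blue for lower. The called rises are En1, En2 and Msx1 at E13 and Msx1 at P70 against E11, and Lmx1b was not listed at both ages in 3 of the comparisons.

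Other genes of the floor plate and its signals moved beside the members. Of 18 such genes other than members, 14 were tested for E18 against E13, of which 3 rose and 5 fell, and 10 for P70 against E18, of which 1 rose and 6 fell. Their median log2 change was -0.19 and -2.07, with medians over all genes of -0.04 and -0.14. For P70 against E18 the guidance gene Ntn1 fell by 3.70 on the log2 scale (SE 0.20, limma adjusted p = 4.1e-11) and Slit2 by 2.86 (SE 0.17, limma adjusted p = 6.38e-11). Of 20 genes of dopamine progenitors and neurons, 5 of 14 tested rose and none fell for E13 against E11, led by Nr4a2, a factor of dopamine neurons (log2 change 2.57, limma adjusted p = 4.82e-05). For E18 against E13, 2 of 16 rose and 7 fell, Nr4a2 among them (-3.35, limma adjusted p = 1.06e-07).

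Markers of other cells also differed between the ages at which members changed. Genes of motile cilia and ependymal cells rose in 7 of 7 tested for E18 against E13, and in 10 of 14 for P70 against E18. Their summed level had a median of 122 units in E11 libraries, 124 in E13 libraries, 10050 in E18 libraries and 25290 in P70 libraries. For mature neuron genes the summed level of all 15 spanned 294 to 872 units in E11 libraries and 981 to 2989 in E13 libraries. It spanned 890 to 2199 in E18 libraries and 322 to 793 in P70 libraries. Tubb3 (mean 996 units at E13 and 67.5 at P70) and Stmn2 (460 and 81.4) carried much of that course. Snap25 (30.5 and 159.9) and Syp (9.34 and 76.8) were higher at P70. For P70 against E11, 5 of the 12 genes tested rose and 3 fell, and for P70 against E18 none of 14 rose and 7 fell. The part of these cells in the members' changes was not tested.

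Within an age, libraries high in 1 of several members tended to be high in others, and Msx1 ran opposite to some of them. Over the 20 libraries, with each age's mean removed, the correlation was 0.77 between Foxa2 and En2, 0.76 between Foxa1 and En2, 0.72 between Lmx1a and Foxa1, 0.72 between En1 and En2 and 0.65 between Foxa1 and Foxa2. For Msx1 it was -0.63 with Foxa1, -0.55 with Lmx1a, -0.50 with En1 and -0.31 with En2, and it was near 0 with Foxa2 (-0.12), Otx2 (0.026) and Ferd3l (0.02). These describe libraries that share their capture and depth, and no test was made. In P70 replicate 6 the deviation from the age mean was -1.51 for Lmx1a, -1.07 for Foxa1 and 1.52 for Msx1. For Lmx1a and Foxa1 these were the largest of all 20 libraries, so their correlations lean on this library. Correlations without it were not computed. P70 replicate 6 was the lowest adult library for Lmx1a, Foxa1, Otx2, En1 and Ferd3l and the highest for Msx1 and Lmx1b. The same library had the highest adult sum of endothelial and mural markers, 100.3 units beside a median of 41.4, of mature neuron genes, 793 beside 452, and of motile cilia genes. That library also had the lowest adult sum of floor plate and midbrain signal genes, 275.7 units beside a median of 394.1. Its sums of astrocyte genes, 6107 beside 6868, and of radial glia genes, 1583 beside 1751, were lowest as well. Its 2551352 recovered reads lay within the range of the other P70 libraries. E18 replicate 1 was the highest of its age for Msx1 and Ferd3l and the lowest for Lmx1a, Foxa1 and En1.

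**Figure D4:**
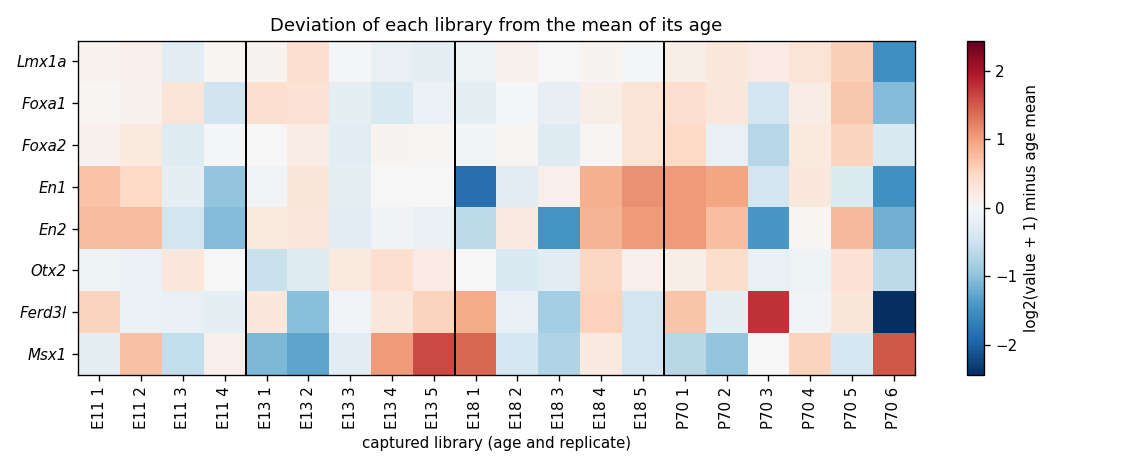
Deviation of each captured library (columns, age and replicate) from the mean of its age on log2(value + 1) (colour, red above and blue below) for the 8 factors listed at all ages (rows). P70 replicate 6 is low for most factors and high for Msx1, and E18 replicate 1 is low for En1 and high for Msx1.

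The genes whose course over the 20 libraries was most like that of each member were sought among 8511 genes by Pearson correlation of log2(value + 1). For Lmx1a they included Bzw2 (0.98) and Eml4 (0.98), and for Foxa2 they were Mrpl20 (0.98), Tcf12 (0.98) and Med22 (0.97). For Otx2 they were Srsf7 (0.98), Actl6a (0.97) and Eif2s1 (0.97), and for Foxa1 Map4k3 (0.93), Kpna3 (0.92) and Wdr26 (0.92). En1 was matched best by Cnpy1 (0.87), which measured 1.90, 16.9, 6.09 and 2.98 units at the 4 ages, and then by Psat1 and Rmst. For Msx1 they included Rsph3a (0.86) and Rsph3b (0.86), near-identical genes whose reads may be split between them. En2 was matched best by C1galt1c1 (0.86) and Ferd3l by Prrg2 (0.85). The 4 ages carry most of these correlations, which are descriptions without a test.

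In adult spheres most members were at or near the limit of counting, and Otx2 was the clearest of them in MB spheres. Levels are given in CPM, the count scaled to the total of its library. Otx2 had 114, 117, 135, 100 and 137 counts in the MB libraries, against 20, 16, 43, 7 and 12 in the FB libraries. That is 16.5 ± 0.84 CPM in MB and 2.40 ± 1.48 CPM in FB (SD, n = 5 each), and every MB library lay above every FB library. The log2 change was 2.75 (SE 0.35, edgeR adjusted p = 4.31e-06). Of all 26005 genes, 6.43% had all MB libraries above all FB libraries.

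The default filter on low counts kept 2 members, Otx2 and Msx1, of which Otx2 was called, where 29.6% of the 12886 genes tested were called and 15.3% as higher in MB. Msx1 had 23, 40, 27, 22 and 29 counts in MB, against 1, 27, 29, 10 and 5 in FB. Its mean was 3.88 ± 0.99 CPM in MB and 1.72 ± 1.52 in FB, and the groups overlapped. The log2 change of 1.13 did not pass (SE 0.58, edgeR adjusted p = 0.156).

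The engrailed genes were detected in all MB libraries at low levels. En1 had 10, 12, 10, 5 and 1 counts in MB, against 0, 1, 1, 3 and 0 in FB, a mean of 1.05 ± 0.61 CPM in MB and 0.119 ± 0.146 in FB. En2 had 2, 7, 4, 10 and 8 counts in MB, against 0, 0, 0, 3 and 0 in FB, a mean of 0.874 ± 0.51 CPM in MB and 0.0712 ± 0.159 in FB. For both genes 1 MB library did not exceed the highest FB library. Summed over libraries, the ratio of MB to FB was 8.41 for En1 (95% interval 3.31 to 27.4) and 11.4 for En2 (3.57 to 58.5), where the intervals cover counting error only.

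Foxa1 had 5, 4, 0, 0 and 1 counts in the MB libraries and 0 in all FB libraries. Foxa2 had 6, 2, 0, 0 and 2 counts in MB, against 0, 0, 0, 1 and 0 in FB. Lmx1b had 4, 1, 0, 0 and 0 counts in MB and 0 in all FB libraries. The counts of these 3 genes came mostly from MB replicates 1 and 2. Lmx1a had 0, 1, 0, 1 and 6 counts in MB, against 0, 1, 1, 13 and 6 in FB, so its counts were no higher in MB. With the MB counts taken as exact and a floor of 3 counts over the FB group (0.0743 CPM), Foxa1 was at least 3.69-fold higher and Lmx1b at least 1.84-fold higher in MB. With counting error on both groups, the lower 95% limit of the summed ratio of MB to FB was 2.48 for Foxa1 and 1.01 for Lmx1b. The summed ratio of MB to FB was 11.1 for Foxa2 (95% interval 1.57 to 480.4) and 0.42 for Lmx1a (0.16 to 0.99), again with counting error only.

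With no filter on low counts, 3 of the 8 members were called, all higher in MB, where 15.6% of 26005 genes were called and 8.65% as higher. They were Otx2, Foxa1 (log2 change 4.19, edgeR adjusted p = 0.0408) and En2 (3.30, edgeR adjusted p = 0.0414), and En1 just missed (2.94, edgeR adjusted p = 0.0501). DESeq2 called Otx2, En1 (log2 change 3.09, adjusted p = 0.0265) and En2 (3.56, adjusted p = 0.0335), and gave no adjusted p for Foxa1, Foxa2 and Lmx1b. A two-sided exact permutation test of CPM for each of the 8 members, with 252 splits and a smallest possible p of 0.00794, gave p = 0.00794 for Otx2, 0.0159 for En1, 0.0159 for En2 and 0.0397 for Msx1. It gave an exact permutation p of 0.167 for Foxa1, 0.167 for Foxa2, 0.444 for Lmx1b and 0.516 for Lmx1a, none of these 8 being adjusted.

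**Figure D5:**
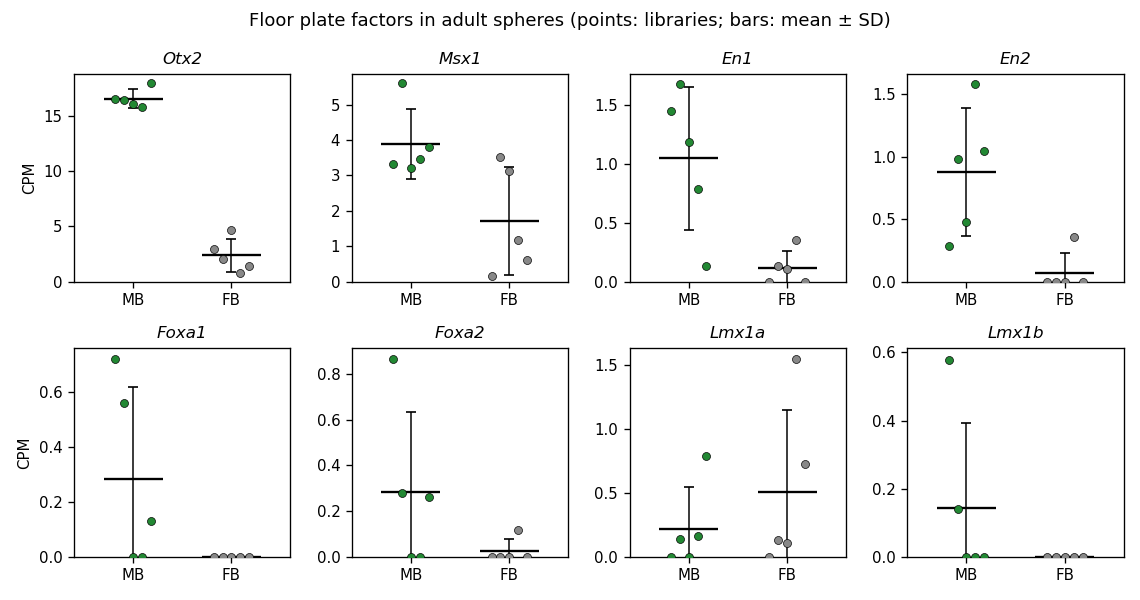
Level of 8 factors (vertical axis, CPM, from 0 on a scale of its own) in MB and FB spheres; points are libraries and bars the mean ± SD (n = 5 each). Otx2 separates the groups fully, Msx1 overlaps, and the other factors stay below 2 CPM in every library.

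Per kilobase of exon, the order of levels in MB spheres was Otx2 (3.91 CPM per kilobase), Msx1 (1.25), En1 (0.399), En2 (0.247), Foxa2 (0.119), Foxa1 (0.085), Lmx1a (0.0638) and Lmx1b (0.0294). Otx2 over Msx1 and Msx1 over En1 held in all 5 MB libraries, and the lower neighbours in 2 to 4 of them. Otx2 and Msx1 also stood highest in adult captured cells, where Foxa1 and En1 followed, but the tables were normalized apart and no test joins them. Forebrain factors bear on the region of origin: of 7 tested, 6 were lower in MB than in FB spheres and none higher. Six3, a homeobox gene of the anterior forebrain, averaged 0.114 ± 0.156 CPM in MB and 14.9 ± 1.71 in FB (log2 change -6.91, edgeR adjusted p = 3.18e-09). Of the 8 floor plate and signal genes tested other than members, 4 were higher and 1 was lower in MB. The ependymal regulator Foxj1 averaged 22.9 ± 4.56 CPM in MB and 13.2 ± 1.84 in FB (log2 change 0.77, edgeR adjusted p = 0.00425).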

How the data were processed

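RNA of 20 captured and 10 sphere libraries was made into libraries by Smart-seq2 and Tn5 transposase, per the labels' protocols, with no molecular identifiers and no strand. The submitters' processing notes name GRCm39, mm10, DESeq2 1.34.0, Salmon 1.6.0 and STAR 2.3, with no role given; the labels do not state the step that counted reads. The authors deposited captured values without naming a unit; they behave as RPKM, and other scaling by the authors cannot be told from the file. Of the 15139 lines, 142 with a repeated symbol were left out. Whole reads were recovered for 11936 genes (79.6%, within 0.01 reads), 7 of the 9 members among them, not Foxa2 and Otx2. The deposited sphere counts are whole numbers, per the file headers for each gene, and may be estimates made whole.

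Captured values were tested with limma 3.58.1 (R 4.3.3), with a variance trend, on log2(value + 1), all 20 libraries in 1 fit, over genes listed at both ages. This scale understates changes of low genes. For spheres the main test was edgeR 4.0.16 quasi-likelihood on counts (TMM, default filter on low counts), whose SE is the log2 change over the root of F, and the alternative was DESeq2 1.42.0. Benjamini-Hochberg adjustment ran over all genes tested in each comparison, threshold 0.05. Alternatives were pseudocounts, filters, scalings, library weights, a replicate block, each library left out and edgeR on recovered reads, the last added after the data had been seen. The tests were run on simulated data first. Samples were grouped by age or sphere name. All 9 members are named in every comparison; of the other lists, counts and up to 3 genes with the smallest p, and for likeness the 3 genes with the highest correlation. Some genes that these rules select are left out of the text and are not reported here. Members and lists were chosen with earlier results of these data known.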

Additional observations from a re-analysis of the deposited data

Results flagged for a closer look

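Of 48 groups of a member's values with 4 to 6 libraries, 8 had a highest or lowest library far from the rest of its group. The rule flags about 1 of 20 groups by chance only where values spread normally. Sphere groups of a few counts with many zeros do not, so the 8 cannot be set against that rate. In captured cells the flagged libraries were Lmx1a in P70 replicate 6, the lowest of 6 libraries at 0.901 units, Msx1 in E18 replicate 1, the highest of 5 at 44.7 units, and Ferd3l in E11 replicate 1, the highest of 4 at 9.72 units. In MB spheres they were Lmx1a in replicate 5, highest at 0.786 CPM, Lmx1b in replicate 1, highest at 0.578 CPM, and Msx1 in replicate 2, highest at 5.60 CPM. In FB spheres Foxa2 in replicate 4 was highest at 0.119 CPM and En2 in the same library was highest at 0.356 CPM, and these 2 values rest on 1 and 3 counts. FB replicate 4 also had the most Lmx1a counts of any sphere library, 13.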

How the results depend on the processing

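Over all alternatives run for the log2 changes of members, 649 values kept their direction and side of the threshold, 6 lost their call, 5 gained one and 20, none of them called, turned their sign. With edgeR on recovered reads 3 of 6 members tested were called for E18 against E13, 1 of 6 for P70 against E18 and 3 of 7 for P70 against E11, where Foxa2 and Otx2 could not be tested. Leaving out 1 library gave 2 to 5 calls for P70 against E18, with 5 without E18 replicate 1. For MB against FB, DESeq2 and edgeR without a filter each called 3 members. All genes called for E13 against E11 numbered 2421, and 3970 after quantile normalization, 3811 with the 2 ages alone and 4873 with library weights; recovered reads gave 2852 for P70 against E18, where 5042 were called, and 4769 for P70 against E11, where 7213 were. With libraries at a common median, 2523 genes were higher and 2261 lower for P70 against E18, beside 2082 and 2960.

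Signs turned, without a call, in these results. Leaving out 1 library gave -0.37 to 0.021 for Ferd3l at E13 against E11, -0.25 to 0.504 for Msx1 at E18 against E13 and -0.083 to 0.138 for Otx2 at P70 against E18. For P70 against E11 it gave -0.044 to 0.574 for En1, -0.562 to 0.073 for En2 and -0.796 to 0.044 for Ferd3l. Recovered reads gave -0.052 for Msx1 at E18 against E13 and, for P70 against E11, 0.081 for En2 and 0.172 for Ferd3l. Quantile normalization gave 0.094 for En2 at P70 against E11. Foxa1 passed for E18 against E13 with the 2 ages alone (-0.48, limma adjusted p = 0.0442). The causes were not tested.

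Replicate numbers do not pair the libraries: deviations of same-numbered libraries correlated between -0.15 and 0.25, with 1 of 5 pairs over 0.1 for E18 against E13 and none elsewhere. With the replicate number as a block, Foxa1 missed the threshold for P70 against E18 (log2 change -0.55, limma adjusted p = 0.0518), En1 passed for P70 against E11 (0.73, limma adjusted p = 0.0429), Ferd3l turned its sign for P70 against E11 (0.093), and no other call of a member changed. Members called with the block numbered 3, 5, 2 and 6 for E13 against E11, E18 against E13, P70 against E18 and P70 against E11, and 1 for MB against FB. Depth limits Lmx1b, En2, Ferd3l and adult Lmx1a in captured cells and all members but Otx2 and Msx1 in spheres.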
